A study of Mus musculus with 8 samples.

Results

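The lysosomal cathepsins, the vacuolar proton pump (V-ATPase), the LAMP proteins and the ATG autophagy genes were followed in the livers of mice fed a high-fructose diet (HFrD) or a normal diet (ND). They were picked by gene symbol alone. The symbols sought were those beginning with Atp6v or Atp6ap, those made of Cts and 1 further letter, and those of Lamp or Atg with a digit. Of 22564 protein-coding genes in the table, 64 had such a symbol, and the 46 of these that averaged 0.5 FPKM or more across the 8 libraries are described here. FPKM counts fragments for each kilobase of a transcript and is corrected for the size of the library, so that levels can be set beside each other between genes. The 46 genes are 10 cathepsins, 18 V-ATPase genes, 2 LAMP genes and 16 ATG genes.

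The livers of 4 ND mice (1, 3, 6 and 7) and 4 HFrD mice (1, 2, 5 and 7) were sequenced by RNA-Seq, with 1 library for each mouse. All were males of the inbred strain C57BL/6J that were purchased at 10 to 11 weeks of age and fed for 2 weeks, and the HFrD served to induce fatty liver. The samples were whole liver, in which hepatocytes predominate beside Kupffer cells (the resident macrophages), endothelial cells and stellate cells.

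Lysosomes are the acidic compartments in which cells digest proteins, lipids and sugars. The V-ATPase pumps protons into them, with a peripheral V1 sector that splits ATP and a membrane V0 sector that lets protons through. Cathepsins are the proteases that work at this acid pH, and LAMP1 and LAMP2 are the sugar-coated proteins that line the inside of the lysosomal membrane. In macroautophagy, the ATG proteins build a double membrane around cytoplasm and deliver it to the lysosome, a route by which the liver recycles protein, mitochondria and lipid droplets during fasting.

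The mRNA of 7 of the 46 genes was higher in HFrD than in ND livers and that of 0 was lower. These were the cathepsin genes Ctsl, Ctsd, Ctss, Ctsb and Ctsz, the proton pump gene Atp6v1g1 and the autophagy gene Atg16l2. A gene was taken as changed at an adjusted p under 0.05 in limma, fitted over all 11476 genes that averaged 0.5 FPKM or more. At that limit 5.44% of all genes tested were higher and 3.69% were lower in HFrD, 9.12% in either direction. The other 39 genes did not pass, although 7 of them, 3 of them lower in HFrD, had an unadjusted p under 0.05. Of all 11476 genes tested, 2925 had an unadjusted p under 0.05, 1285 of them lower in HFrD. Among the 46 genes these counts were 14 and 3. In 9 of the 46 genes every HFrD value lay above every ND value, against 9.6% of all genes tested, and in 1, Lamp1, every HFrD value lay below, against 7.01% of all genes.

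The median log2 fold change (HFrD over ND, of FPKM + 1) was -0.01 over the 46 genes and 0.01 over all genes tested, with a range from -0.33 for Atg4a to 1.15 for Atg16l2. Addition of 1 makes this scale understate the change of genes with low FPKM. The change was therefore carried by a few genes, while 23 of the 46 had a positive and the others a negative log2 fold change. In a liver homogenate, more cells of a type and more mRNA in each cell cannot be told apart, which holds for every value given here.

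**Figure D1:**
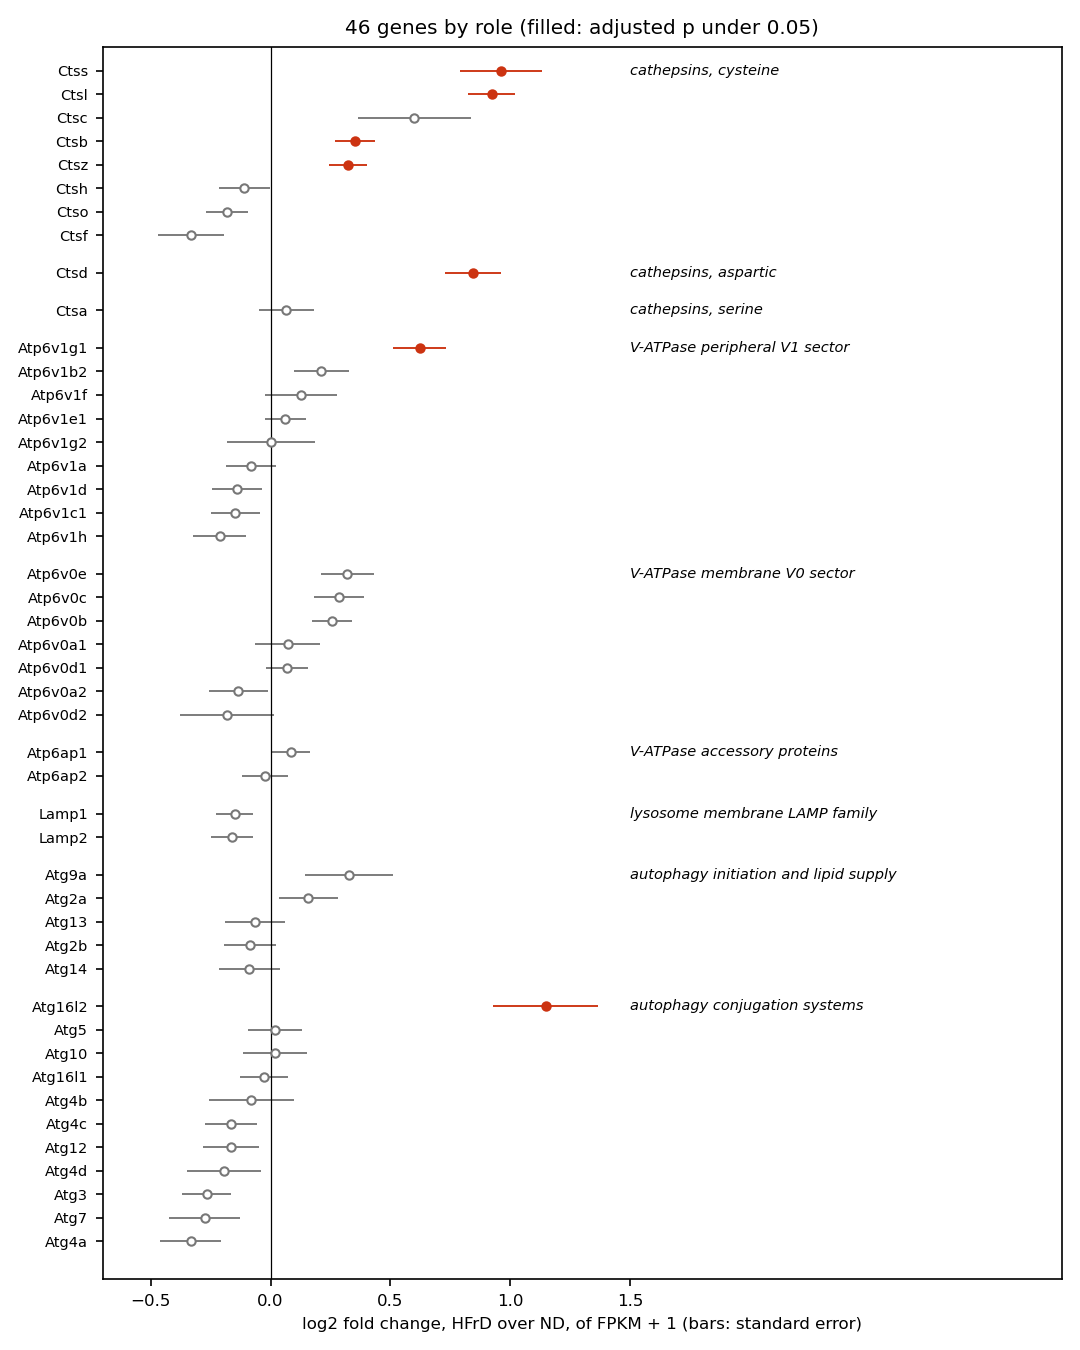
Log2 fold change of FPKM + 1 (HFrD over ND, 4 mice each) of the 46 genes on the x axis, sorted within their roles, with bars for the standard error and filled points for an adjusted p under 0.05. The 7 filled points lie to the right of 0, 5 of them among the 10 cathepsins, and most of the V-ATPase, LAMP and ATG genes lie close to 0.

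The FPKM of each library summed to 473888 to 506258. Because FPKM is corrected for library size, these sums do not show how alike the libraries were. Genes with a value above 0 numbered 13755 to 13973 in ND and 14053 to 14392 in HFrD, without overlap. The absolute depth is unknown because the values are FPKM. Depth relative to ND mouse 1, read from the commonest ratio between low values, was 0.991 to 1.17 in ND and 1.13 to 1.49 in HFrD mice, and the part of this gap in the results was not tested. The commonest ratio was that of 33 (HFrD mouse 7) to 158 genes (ND mouse 7). On the first principal component, which held 42.5% of the variance, the mouse nearest to the other diet was mouse 7 among the ND and mouse 1 among the HFrD mice. Without these 2 mice, 5 of the 46 genes were higher and 1 (Atg3) was lower. The hepatocyte marker genes had a summed level of 30517 to 45664 FPKM over the 8 libraries.

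Promoters were examined for the letters CACGTG, the E-box core that is bound by TFEB and TFE3, which drive many lysosomal genes, and also by USF and other factors. CACGTG reads the same on both strands. RefSeq windows of the GRCm38.p6 build, from 250 bases before to 50 bases after the start site, were on hand for 36 of the 46 genes. They held CACGTG in 13 of these 36 (36.1%), against 11.9% of the 8593 tested genes with a window and 9.89% of the tested genes that were higher in HFrD. The longer form TCACGTGA, which contains CACGTG, was held by 6 of the 36 (16.7%), against 2.26% of the tested genes. These shares describe letters in windows and were not tested.

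Of the 7 genes higher in HFrD, 5 had a window. CACGTG was held by Ctsd and Ctsl and was not in the windows of Ctss, Ctsz and Atg16l2. It was also held by genes that did not pass the test, which were Lamp1 with 4 copies, Atg3, Atp6v0b and Ctsa with 2 each, and Atg5, Atg7, Atg14, Atp6v0d1, Atp6v0e, Atp6v1a and Ctsf with 1 each. The stretches below are those of the 2 genes that rose and hold the letters (Ctsd and Ctsl) and of 4 that hold them and did not pass (Lamp1, Atp6v0b, Atp6v1a and Atg3), picked as examples from different roles, with no test. Capitals mark CACGTG, each stretch runs 5′ to 3′ on the strand of its gene, and 30 bases are given.
Ctsd, minus strand, chr7:142387908-142387937: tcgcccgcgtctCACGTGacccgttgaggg
Ctsd, minus strand, chr7:142388048-142388077: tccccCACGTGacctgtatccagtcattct
Ctsl, minus strand, chr13:64370739-64370768: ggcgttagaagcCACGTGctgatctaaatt
Lamp1, plus strand, chr8:13159113-13159142: gccCACGTGatgccgactggCACGTGacca
Atp6v0b, minus strand, chr4:117887339-117887368: ggtCACGTGgggtcggcgcatCACGTGcgc
Atp6v1a, minus strand, chr16:44139373-44139402: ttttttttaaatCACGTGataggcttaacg
Atg3, plus strand, chr16:45158746-45158775: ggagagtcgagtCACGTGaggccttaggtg
The first Ctsd stretch and those of Atp6v1a and Atg3 carry the longer form, and the pairs in Lamp1 and Atp6v0b lie within 1 stretch each.

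Of the 10 cathepsin genes, 5 were higher in HFrD, 0 were lower, and 5 did not pass, while 5.44% of all genes tested were higher. Ctsl encodes cathepsin L, a cysteine endopeptidase, and had the highest mean level of the cathepsins. Its gene lies on chr13:64359337-64370890 (GRCm38). Ctsl was at 181, 159, 166 and 191 FPKM in ND mice 1, 3, 6 and 7 and at 286, 364, 339.9 and 338 FPKM in HFrD mice 1, 2, 5 and 7. The groups were far apart, the lowest HFrD value being that of HFrD mouse 1. The mean rose 1.9-fold, from 175 ± 14.4 to 332 ± 33.2 FPKM (SD, n = 4), with a log2 fold change of 0.92 ± 0.10 (SE) and an adjusted p of 0.0012 in limma. In the exact two-sided permutation test over all 70 relabellings of the libraries, Ctsl and the other 6 higher genes each had p = 0.029, the smallest that 4 against 4 mice allow.

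Ctsd encodes cathepsin D, the main aspartic protease of the lysosome (chr7:142375911-142388038). Ctsd stood at 85.7, 91.6, 83.4 and 90.4 FPKM in the ND mice and at 127, 167, 191 and 154 FPKM in the HFrD mice. The 4 ND livers were within a narrow band, while the HFrD livers spread widely above it. The mean rose 1.82-fold, from 87.8 ± 3.87 to 159.9 ± 26.5 FPKM (SD, n = 4), with a log2 fold change of 0.84 ± 0.12 (SE) and an adjusted p of 0.0030 in limma.

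Ctss encodes cathepsin S, a cysteine protease best known in macrophages and other antigen-presenting cells, where it trims the invariant chain (chr3:95526786-95556403). Its level was 17.4, 23.5, 11.8 and 16.6 FPKM in ND and 35.9, 30.1, 36.9 and 32.6 FPKM in HFrD mice. No ND value reached the HFrD values. The mean rose 1.95-fold, from 17.3 ± 4.81 to 33.9 ± 3.09 FPKM (SD, n = 4), with a log2 fold change of 0.96 ± 0.17 (SE) and an adjusted p of 0.0093 in limma. The authors' table gives Ctss a locus shared with 32 other genes, 23 of which were tested. Of these 0 passed the test, and their log2 fold changes ranged from -0.35 to 0.80, with a median of 0.00. Whether this sharing bears on the value of Ctss was not tested.

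Ctsb encodes cathepsin B, which acts both as an endopeptidase and as a carboxypeptidase (chr14:63122462-63145923). It was at 80.5, 78.1, 68.9 and 67.4 FPKM in ND and at 98.0, 91.9, 94.7 and 91.6 FPKM in HFrD mice. The groups were separate but close. The mean rose 1.28-fold, from 73.7 ± 6.55 to 94.1 ± 2.98 FPKM (SD, n = 4), with a log2 fold change of 0.35 ± 0.08 (SE) and an adjusted p of 0.0275 in limma.

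Ctsz encodes cathepsin Z, a carboxypeptidase (chr2:174427493-174439039). It was at 77.8, 83.3, 81.4 and 77.9 FPKM in ND and at 109, 98.0, 90.9 and 105 FPKM in HFrD mice. Here too the groups did not overlap. The mean rose 1.26-fold, from 80.1 ± 2.69 to 101 ± 7.95 FPKM (SD, n = 4), with a log2 fold change of 0.32 ± 0.08 (SE) and an adjusted p of 0.0333 in limma.

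The 5 cathepsins were not equally firm. When each mouse in turn was removed, Ctsl, Ctsd and Ctss passed in all 8 fits, and their highest adjusted p were 0.0061, 0.0134 and 0.0305. Ctsb passed in 2 of the 8 fits, those without ND mouse 1 or HFrD mouse 1, and reached an adjusted p of 0.0739 without ND mouse 6. Ctsz passed in 1, that without HFrD mouse 5, and reached an adjusted p of 0.0904 without ND mouse 1. Without both HFrD mouse 1 and ND mouse 7, the adjusted p was 0.0689 for Ctsb and 0.0790 for Ctsz, and their log2 fold changes were 0.29 and 0.27.

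**Figure D2:**
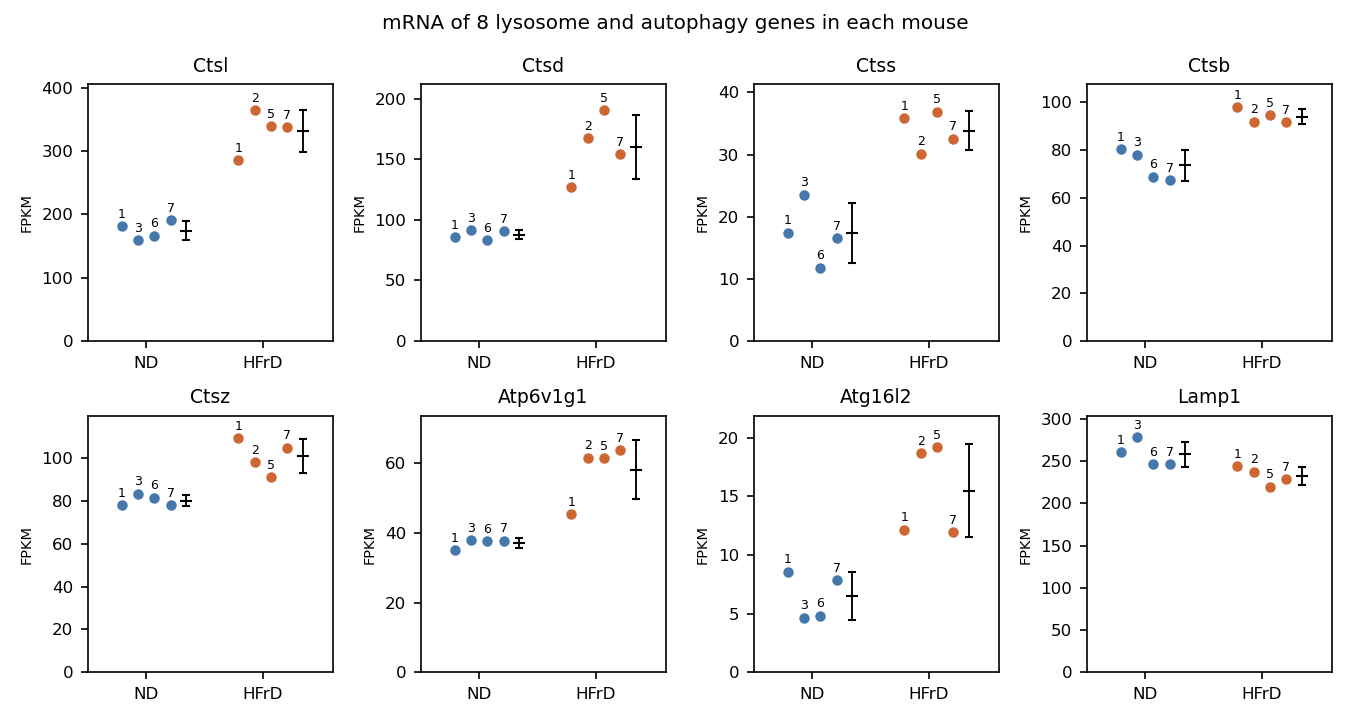
FPKM (y axis, from 0) of the 7 genes that were higher in HFrD and of Lamp1 in each mouse, numbered as in the labels, with the mean and SD (black) of the 4 ND and the 4 HFrD mice. In the first 7 panels each HFrD point lies above each ND point, and in the Lamp1 panel each HFrD point lies below each ND point.

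The other 5 cathepsins did not pass the test. Ctsc, or dipeptidyl peptidase I, which activates the serine proteases of immune cell granules, had a log2 fold change of 0.60 and an adjusted p of 0.143. Its ND values were 41.2 FPKM in ND mouse 1 and 20.8 to 23.5 FPKM in the others, and its HFrD values were 26.9 to 51.3 FPKM, so that ND mouse 1 lay within the HFrD range. Without ND mouse 1, Ctsc had a log2 fold change of 0.82 and passed the test with an adjusted p of 0.0461. That was 1 of the 8 fits without 1 mouse. Ctsc did not pass in the others, and its adjusted p reached 0.269 without ND mouse 6.

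Ctsh, an aminopeptidase and the cathepsin with the highest level after Ctsl and Ctsd, was at 118 to 135 FPKM in ND and 100.1 to 140.3 FPKM in HFrD mice, with a log2 fold change of -0.11. Ctsa, the serine carboxypeptidase that also protects beta-galactosidase and neuraminidase, was at 41.1, 50.8, 38.5 and 46.4 FPKM in ND and 50.8, 40.9, 41.9 and 51.6 FPKM in HFrD mice (log2 fold change 0.07, SE 0.12, adjusted p = 0.766). The cysteine cathepsins Ctso and Ctsf had log2 fold changes of -0.18 and -0.33, with adjusted p of 0.233 and 0.166. For these 4 genes the ranges of the diets overlapped.

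The cathepsin mRNA pool was larger and differently composed in HFrD livers. The 10 genes summed to 637 to 689.6 FPKM in ND and 927 to 960.4 FPKM in HFrD mice. The 5 genes that rose summed to 412 to 444 FPKM in ND and 656 to 753 FPKM in HFrD mice, while the other 5 gave 214 to 247 and 207 to 271 FPKM. Ctsl made up 24.0 to 29.1% of the pool in ND and 30.8 to 38.0% in HFrD mice. The share of Ctsh was 17.9 to 21.2% in ND and 10.4 to 15.1% in HFrD mice, and the FPKM ratio of Ctsl to Ctsh was 1.23 to 1.63 in ND and 2.04 to 3.39 in HFrD mice. The 5 genes that rose, Ctsl among them, were set apart by the test on these same values. The gaps in these sums, shares and ratios are therefore no separate support.

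Markers of macrophages, which are rich in cathepsins, were also higher in HFrD livers. Of 12 Kupffer cell and macrophage markers measured, 10 were higher in HFrD and 0 were lower, while 5.44% of all genes tested were higher. Their median log2 fold change was 0.95, and none was at 0 in every library. Their summed level was 138, 152, 99.8 and 119.7 FPKM in the ND mice and 301, 206, 273 and 270.1 FPKM in the HFrD mice. Tyrobp, a signalling adaptor of myeloid cells, rose 2.65-fold (adjusted p = 0.000744 in limma), and Clec4f, a lectin of mouse Kupffer cells, rose 1.65-fold (adjusted p = 0.0155). The count of 10 became 7 to 10 when 1 mouse was left out and was 8 without HFrD mouse 1 and ND mouse 7. It was 7 with no filter, 8 with array weights or without a variance trend, and 9 under quantile normalization.

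The level of each cathepsin relative to this marker sum differed between the genes. The ratio of Ctss to the sum was 0.118 to 0.154 in ND and 0.119 to 0.146 in HFrD livers, almost the same range. The ratios of Ctsl (1.05 to 1.67 in ND, 0.948 to 1.77 in HFrD) and Ctsd (0.601 to 0.836 and 0.422 to 0.812) overlapped but were spread more widely. How the levels of single mice lay beside the sum varied and was not tested. HFrD mouse 1 had the highest sum (301 FPKM) and the lowest Ctsl and Ctsd, while its Ctsb and Ctsz were the highest. HFrD mouse 2 had the lowest sum (206 FPKM) and the highest Ctsl, and HFrD mouse 5 (273 FPKM) had the highest Ctsd. Among the ND mice, mouse 3 had the highest sum (152 FPKM), the highest Ctsd and the lowest Ctsl. ND mouse 6 had the lowest sum (99.8 FPKM) and the lowest Ctsd. The ratios of Ctsb (0.512 to 0.690 in ND, 0.325 to 0.446 in HFrD) and Ctsz (0.546 to 0.816 and 0.333 to 0.476) to the sum were lower in each HFrD than in each ND liver, so that the markers had increased by more than either gene. The part of the macrophage markers in the cathepsin results was not tested.

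**Figure D3:**
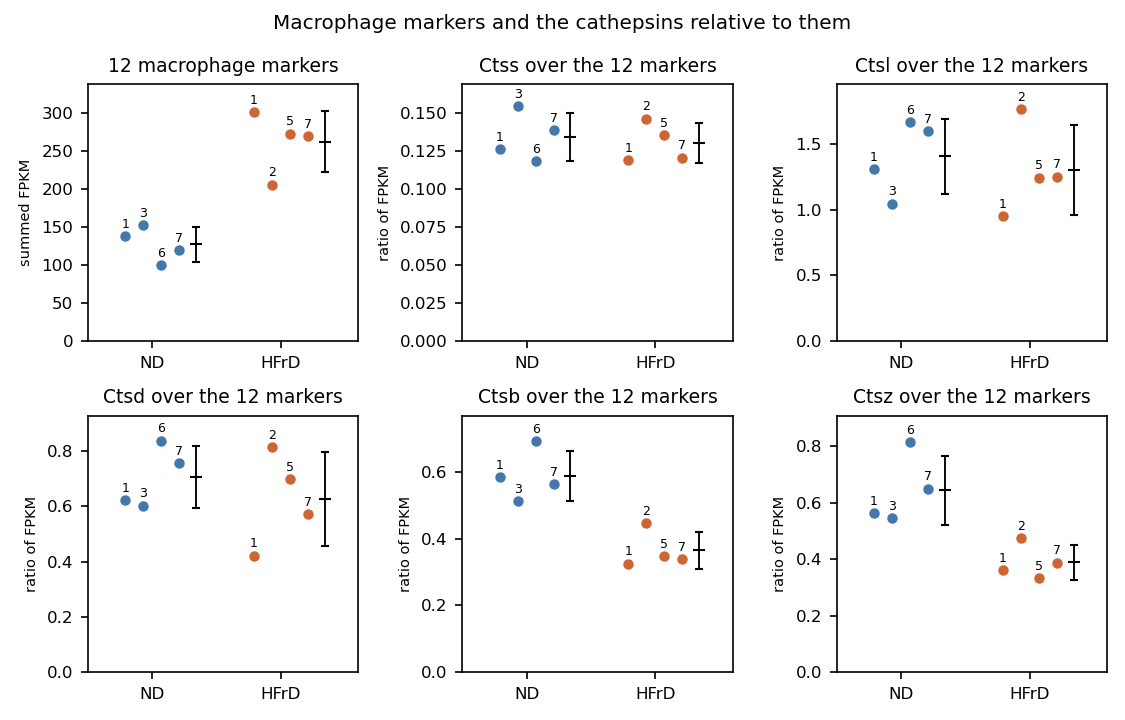
Summed FPKM of 12 Kupffer cell and macrophage markers (first panel) and the ratio of each of the 5 higher cathepsins to that sum (other panels) in each mouse, with the mean and SD in black. The marker sum separates the diets, the ratios of Ctss, Ctsl and Ctsd overlap, and those of Ctsb and Ctsz lie lower in the HFrD mice.

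Of the 18 V-ATPase genes, 1 was higher in HFrD, 0 were lower and 17 did not pass, while 5.44% of all genes tested were higher. The 1 higher gene was Atp6v1g1 (chr4:63544772-63550750), which encodes the G1 subunit of the stalk that holds the V1 sector in place. Its level was 35.0, 37.9, 37.6 and 37.7 FPKM in the ND mice and 45.4, 61.5, 61.3 and 63.6 FPKM in the HFrD mice. The groups were apart, and HFrD mouse 1 lay well below the other 3 HFrD mice. The mean rose 1.57-fold, from 37.0 ± 1.37 to 57.9 ± 8.45 FPKM (SD, n = 4), with a log2 fold change of 0.62 ± 0.11 (SE) and an adjusted p of 0.0093 in limma, which stayed at or under 0.0341 when any 1 mouse was left out.

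The locus that the authors' table gives for Atp6v1g1 is shared with 10 other genes, among them the acute-phase genes Orm1, Orm2 and Orm3. Of the 7 that were tested, Orm2 was higher and Col27a1 was lower in HFrD, and log2 fold changes ranged from -0.65 to 1.9. Whether this sharing bears on the value of Atp6v1g1 was not tested.

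The other 8 V1 genes did not pass the test. Atp6v1e1, which encodes the partner of G1 in the stalk, was at 37.1 to 45.6 FPKM in ND and 40.7 to 44.7 FPKM in HFrD mice, with a log2 fold change of 0.06. The FPKM ratio of Atp6v1g1 to Atp6v1e1 was 0.824 to 1.02 in ND and 1.10 to 1.51 in HFrD livers, without overlap. Log2 fold changes were -0.08 for Atp6v1a and 0.21 for Atp6v1b2, which form the ring that splits ATP. They were -0.14 for Atp6v1d and 0.13 for Atp6v1f, which belong to the rotor, and -0.15 for Atp6v1c1 and -0.21 for Atp6v1h, which join V1 to V0. Atp6v1g2, a G subunit best known from neurons, was at 0.266 to 1.16 FPKM and had a log2 fold change of 0.00. The V1 genes other than Atp6v1g1 summed to 163 to 179 FPKM in ND and 160.4 to 176 FPKM in HFrD livers.

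In the V0 sector 0 of 7 genes passed. Of all 11476 genes tested, 2925 had an unadjusted p under 0.05 in either direction, 1285 of them lower in HFrD. In the V0 sector 3 of the 7 had it, each with a higher mean in HFrD. These were Atp6v0b and Atp6v0c, which encode proteolipids of the proton-carrying ring, and Atp6v0e, a small V0 subunit. Atp6v0b, the V0 gene with the highest mean, was at 27.9, 30.8, 32.7 and 29.2 FPKM in ND and 36.1, 36.7, 33.2 and 38.8 FPKM in HFrD mice. Its groups did not overlap, yet the adjusted p was 0.085 (log2 fold change 0.26, SE 0.08). Atp6v0e (19.9 to 26.0 FPKM in ND, 27.0 to 34.3 in HFrD) likewise did not overlap, with a log2 fold change of 0.32 and an adjusted p of 0.0944. Atp6v0c (23.5 to 31.3 and 29.2 to 34.3 FPKM) had a log2 fold change of 0.29 and an adjusted p of 0.117.

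The remaining V0 genes lay closer to 0 or were lower. The a subunits, which carry the proton path and place the pump in different membranes, had log2 fold changes of 0.07 (Atp6v0a1) and -0.14 (Atp6v0a2). The d subunits, which couple V0 to the rotor, had 0.07 (Atp6v0d1) and -0.18 (Atp6v0d2). Tcirg1, the a3 subunit, whose symbol the search did not cover, was at 6.69 to 12.9 FPKM in ND and 8.12 to 13.5 FPKM in HFrD mice (log2 fold change 0.12). Of the accessory proteins, Atp6ap1, which helps to assemble the pump, was at 23.9, 27.3, 25.0 and 25.1 FPKM in ND and 27.9, 27.0, 24.9 and 27.9 FPKM in HFrD mice (log2 fold change 0.09, SE 0.08, adjusted p = 0.542). Atp6ap2, also known as the prorenin receptor, had a log2 fold change of -0.02. Without Atp6v1g1, the V-ATPase genes summed to 345 to 354 FPKM in ND and 346 to 380.1 FPKM in HFrD mice.

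The membrane proteins Lamp1 and Lamp2 had the highest levels of all 46 genes apart from Ctsl, and neither rose with the cathepsins. Lamp2 was at 325, 349, 377 and 339 FPKM in the ND mice and 329, 329, 309 and 276 FPKM in the HFrD mice. Its groups overlapped, and its log2 fold change was -0.16 (SE 0.09, adjusted p = 0.281). Lamp1 was at 260.2, 278, 246 and 246 FPKM in ND and 244, 237, 219 and 228 FPKM in HFrD mice. Each HFrD value of Lamp1 lay below each ND value, with a log2 fold change of -0.15 (SE 0.08) and an adjusted p of 0.261 in limma, beside p = 0.029 in the exact two-sided permutation test of this gene alone.

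The ratios of protease to membrane mRNA within a library do not depend on its scale. Ctsl over Lamp1 was 0.574 to 0.778 in ND and 1.17 to 1.55 in HFrD livers. Ctsd over Lamp2 was 0.222 to 0.267 in ND and 0.387 to 0.617 in HFrD livers. Neither pair of ranges overlapped, and HFrD mouse 1 had the lowest HFrD value of both. Ctsl and Ctsd were already among the genes higher in HFrD, and each HFrD value of Lamp1 lay below each ND value. The gap in these ratios is therefore no separate support. The ratio of Atp6v0a1 to Atp6v0a2, neither of which passed, overlapped (1.96 to 4.10 in ND, 2.71 to 4.07 in HFrD).

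**Figure D4:**
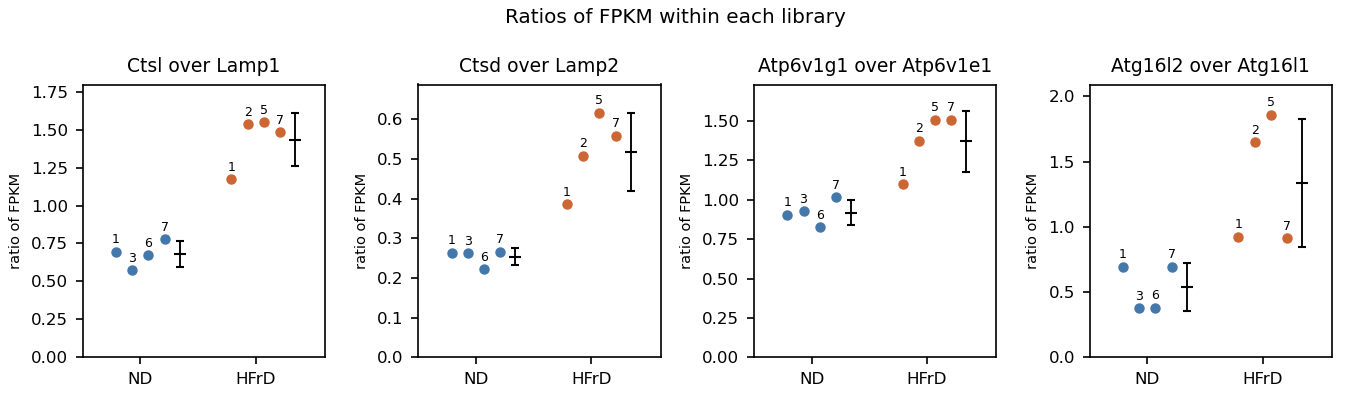
Ratio of FPKM between 2 genes of the same library (y axis, from 0) in each mouse, with the mean and SD of the 4 mice of each diet in black. The ranges of ND and HFrD do not overlap in any of the 4 panels, for example 0.574 to 0.778 against 1.17 to 1.55 for Ctsl over Lamp1. The first gene of each ratio is 1 of the 7 that were higher in HFrD.

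Of the 16 ATG genes, 1 was higher in HFrD, 0 were lower and 15 did not pass. Over all genes tested, 5.44% were higher and 3.69% were lower. Among the 15, 2 genes, Atg3 and Atg4a, were lower at an unadjusted p under 0.05, as were 1285 of all 11476 genes. The gene that rose was Atg16l2 (chr7:101263034-101302251), a paralogue of Atg16l1. ATG16L1 holds the ATG12-ATG5 conjugate on the growing membrane, and ATG16L2 can bind ATG5 as well. Atg16l2 was at 8.58, 4.67, 4.83 and 7.89 FPKM in the ND mice and at 12.2, 18.7, 19.2 and 12.0 FPKM in the HFrD mice. Both groups were spread, with HFrD mice 2 and 5 far above HFrD mice 1 and 7, but they did not overlap. The mean rose 2.39-fold, from 6.49 ± 2.03 to 15.5 ± 3.98 FPKM (SD, n = 4), with a log2 fold change of 1.15 ± 0.22 (SE) and an adjusted p of 0.0127 in limma, at most 0.0387 when any 1 mouse was left out.

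Atg16l1 itself was at 11.3 to 12.7 FPKM in ND and 10.3 to 13.2 FPKM in HFrD mice, with a log2 fold change of -0.03. The FPKM ratio of Atg16l2 to Atg16l1 was 0.376 to 0.695 in ND and 0.912 to 1.86 in HFrD livers. In HFrD mice 2 and 5 Atg16l2 thus had the higher level, whereas in the ND mice Atg16l1 did.

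The other genes of the conjugation systems did not pass the test, and most had negative log2 fold changes. Atg3, the E2 enzyme that joins the ATG8 proteins to lipid and the ATG gene with the highest mean, was at 37.2, 33.6, 34.6 and 31.2 FPKM in ND and 33.3, 27.6, 24.6 and 27.8 FPKM in HFrD mice. Only HFrD mouse 1 lay within the ND range. The log2 fold change was -0.27 (SE 0.10, adjusted p = 0.136), and without HFrD mouse 1 it was -0.35 with an adjusted p of 0.0436. Atg3 passed in only 1 of the 8 fits without 1 mouse, and its adjusted p reached 0.293 without HFrD mouse 5. Atg4a, a protease that trims ATG8 proteins, was at 5.87 to 7.42 FPKM in ND and 4.24 to 6.42 FPKM in HFrD mice. Its log2 fold change was -0.33 (adjusted p = 0.131) and, without HFrD mouse 1, -0.43 (adjusted p = 0.0477). Atg4a likewise passed in only 1 of the 8 fits, and its adjusted p reached 0.282 without HFrD mouse 5. Its relatives Atg4b, Atg4c and Atg4d had log2 fold changes of -0.08, -0.16 and -0.19.

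Among the remaining conjugation genes, Atg7, the E1 enzyme that starts both conjugations, had -0.28 on the log2 scale (adjusted p = 0.283). Atg12, the ubiquitin-like protein joined to ATG5, had -0.16, Atg5 had 0.02, and Atg10, the E2 enzyme for ATG12, had 0.02. All 11 conjugation genes summed to 129 to 138 FPKM in ND and 118 to 141 FPKM in HFrD livers. This sum includes Atg16l2, whose mean rose from 6.49 to 15.5 FPKM, so it does not describe the other genes alone.

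The 5 genes of initiation and lipid supply likewise did not pass, and 0 had an unadjusted p under 0.05. Atg13, the adaptor of the ULK kinase complex and the highest of them, was at 13.1, 12.0, 14.0 and 10.2 FPKM in ND and 13.2, 12.8, 10.8 and 10.1 FPKM in HFrD mice (log2 fold change -0.07, SE 0.12, adjusted p = 0.784). Atg14, which directs the lipid kinase VPS34 to autophagy, had -0.09. Atg9a, the scramblase of the seed vesicles, had 0.33 (adjusted p = 0.296), with ND values of 5.13 to 9.93 FPKM that enclosed the HFrD values of 8.40 to 9.34 FPKM. The lipid transfer genes Atg2a and Atg2b had 0.16 and -0.09.

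The 18 genes with a matching symbol and a mean under 0.5 FPKM were not tested. Of these, 10 were listed at 0 in every library. They were the V-ATPase genes Atp6v1b1, Atp6v1c2, Atp6v1e2, Atp6v1g3 and Atp6ap1l, the cathepsin genes Ctsg, Ctsm, Ctsq and Ctsr, and Lamp5. Ctsg is made by neutrophil precursors, Ctsm, Ctsq and Ctsr belong to the mouse placental cathepsins, and Atp6v1b1 is the B subunit of kidney intercalated cells. The rest were Ctsk, the osteoclast protease, with Ctsw, Ctsj and Ctse, together with Atp6v0e2, Atp6v0a4, Atg9b and Lamp3, with no value above 0.611 FPKM. The members nearest to the limit were Atp6v1g2 with a mean of 0.643 and Atp6v0d2 with 1.38 FPKM, and the nearest genes outside it were Ctsk with 0.388 and Atp6v0e2 with 0.299 FPKM.

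Of 38 other lysosomal hydrolases and their activators, 7 were higher in HFrD and 0 were lower, with a median log2 fold change of 0.11. Over all genes tested, 5.44% were higher. The count of 7 became 2 without ND mouse 3, HFrD mouse 2 or HFrD mouse 7, 3 without HFrD mouse 5, 4 without ND mouse 6 or ND mouse 7, 5 without ND mouse 1 or HFrD mouse 1, and 3 without both HFrD mouse 1 and ND mouse 7. Galc, which removes galactose from galactosylceramide, rose 2.46-fold, from 1.82 to 2.38 FPKM in ND to 3.70 to 6.36 FPKM in HFrD mice (log2 fold change 0.96, SE 0.15, adjusted p = 0.0064 in limma). Lipa, the acid lipase that digests cholesteryl esters and triglycerides, was at 61.6 to 73.1 FPKM in ND and 82.3 to 86.9 FPKM in HFrD mice (log2 fold change 0.34, SE 0.08, adjusted p = 0.0301). Psap, the precursor of the saposins and the highest of the list, was at 87.4 to 99.8 and 107 to 121 FPKM (log2 fold change 0.28, SE 0.08, adjusted p = 0.0454).

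Scpep1, a serine carboxypeptidase, Gm2a, the activator of ganglioside digestion, Gaa, the acid glucosidase that digests glycogen, and Arsb, an arylsulfatase, had log2 fold changes of 0.49, 0.46, 0.42 and 0.36. None of the 7 genes had an ND value as high as its HFrD values. Galc and Scpep1 passed in each of the 8 fits without 1 mouse, Gm2a in 4, Gaa and Lipa in 3 each, and Psap and Arsb in 0.

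Among genes of the lysosomal membrane, of sorting and of nutrient sensing, few passed the test. Of 19 membrane and efflux genes 2 were higher and 0 lower, against 5.44% and 3.69% of all genes tested. An unadjusted p under 0.05 was found for 7 of the 19 and for 2925 of all 11476 genes. Npc2, which hands cholesterol out of the lysosome, was at 9.18 to 11.0 FPKM in ND and 13.5 to 15.6 FPKM in HFrD mice (log2 fold change 0.55, SE 0.09, adjusted p = 0.0086). The other was the membrane protein gene Tmem192 (0.39, adjusted p = 0.0329), which passed in 1 of the 8 fits without 1 mouse. For Laptm4a, the highest of the list, the log2 fold change was 0.16 (adjusted p = 0.224).

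Of 12 genes that tag or sort lysosomal enzymes, 1 was higher and 1 was lower, against 5.44% and 3.69% of all genes tested. M6pr, the cation-dependent mannose phosphate receptor that carries new enzymes from the Golgi, was at 44.8 to 48.5 FPKM in ND and 55.9 to 60.1 FPKM in HFrD mice (log2 fold change 0.30, SE 0.07, adjusted p = 0.0254), and passed in 2 of the 8 fits without 1 mouse. Sort1, which encodes sortilin, a sorting receptor with a role in lipoprotein secretion, was at 5.99 to 8.15 FPKM in ND and 3.58 to 4.74 FPKM in HFrD mice (-0.70, SE 0.13, adjusted p = 0.0104), and passed in all 8.

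Of 23 genes of nutrient sensing at the lysosome and of the TFEB family, Lamtor1, which anchors the Ragulator complex, was higher (18.1 to 20.2 FPKM in ND, 23.8 to 26.1 in HFrD, log2 fold change 0.38, adjusted p = 0.0153) and 0 were lower. Over all genes tested, 5.44% were higher. Lamtor2, the highest of the list, had a log2 fold change of 0.10. The mRNA of Tfeb, the transcription factor named above, was at 2.40 to 3.10 FPKM in ND and 1.98 to 3.03 FPKM in HFrD mice (-0.15, adjusted p = 0.497). Its relatives Tfe3, Tfec and Mitf had log2 fold changes of 0.19, 0.57 and -0.15, with adjusted p of 0.275, 0.0746 and 0.520. Of 8 cathepsin inhibitors listed, 5 lay under 0.5 FPKM and 3 were tested. Among these 3, Cst3, which encodes the secreted cystatin C, was higher (46.9 to 52.7 FPKM in ND, 65.6 to 81.2 in HFrD, log2 fold change 0.51, adjusted p = 0.0077).

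Of 27 autophagy kinases, ATG8 proteins and receptors, 1 was higher and 1 was lower, against 5.44% and 3.69% of all genes tested. These 2 genes encode related kinases. Ulk1, which starts autophagosome formation, was at 3.73, 8.40, 8.57 and 10.6 FPKM in ND and at 13.1, 17.7, 20.0 and 13.6 FPKM in HFrD mice (log2 fold change 1.01, SE 0.26, adjusted p = 0.0364). Ulk2 was at 22.0, 27.1, 24.2 and 21.4 FPKM in ND and at 19.2, 14.0, 15.6 and 17.3 FPKM in HFrD mice (-0.50, SE 0.12, adjusted p = 0.0261). The FPKM ratio of Ulk1 to Ulk2 was 0.170 to 0.494 in ND and 0.683 to 1.28 in HFrD livers, without overlap. This gap follows from the values of the 2 genes, neither of which overlapped between the diets. Ulk1 passed in 3 and Ulk2 in 2 of the 8 fits without 1 mouse, with adjusted p up to 0.0962 and 0.0751. Sqstm1, the receptor p62 and the highest of the list, was at 99.8 to 123 FPKM in ND and 127 to 157 FPKM in HFrD mice, with 0.35 and an adjusted p of 0.0502.

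**Figure D5:**
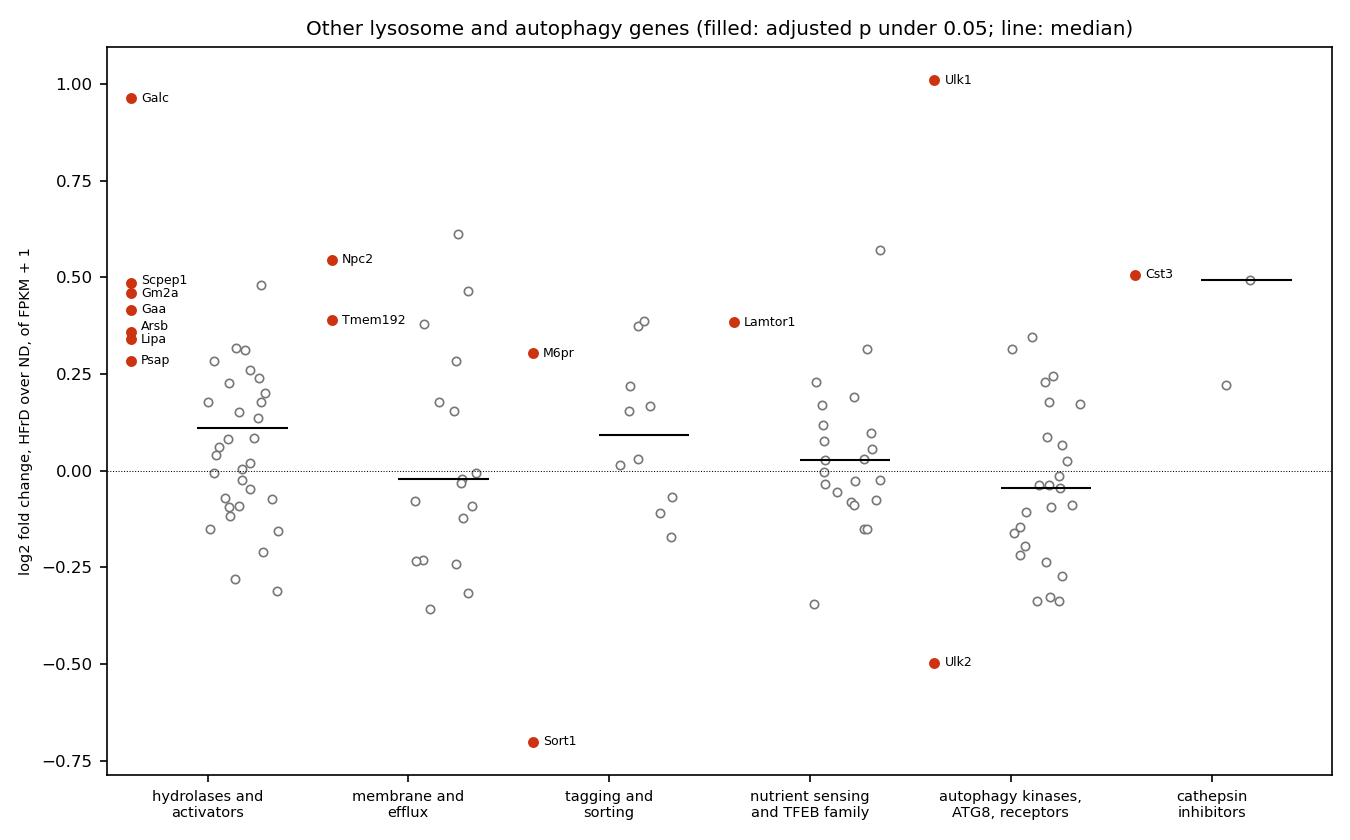
Log2 fold change of FPKM + 1 (HFrD over ND, y axis) of the tested genes of 6 further lists, with filled, named points for an adjusted p under 0.05 and a line for the median of the list. Of the named genes, 13 lie above 0 and Sort1 and Ulk2 lie below, and the medians run from -0.04 for the autophagy list to 0.49 for the 3 inhibitors.

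Markers of other liver cells were counted in the same way, beside the 5.44% of all genes tested that were higher. In the sinusoidal endothelium list 2 of 6 were higher (Oit3 and Lyve1), with a summed level of 63.5 to 73.8 FPKM in ND and 82.3 to 95.0 FPKM in HFrD livers. Of the monocyte-derived macrophage list 1 of 4 tested was higher, Cd9, and 6 lay under 0.5 FPKM. In the stellate cell, cholangiocyte, dendritic cell, neutrophil and T and NK cell lists, 0 of 6, 3, 2, 2 and 1 tested genes passed. The hepatocyte markers summed to 30517 to 39090 FPKM in ND and 37911 to 45664 FPKM in HFrD livers. Such a sum is carried most by the genes with the highest FPKM. Of these 6 genes, 3 had a positive log2 fold change, and the range was -0.24 to 0.53. Only Ttr was higher, and it passed in 1 of the 8 fits without 1 mouse. Without HFrD mouse 1 and ND mouse 7, 2 of the 6 were higher and Apob was lower. The part of these cells in the results above was not tested.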

How the data were processed

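Liver RNA of 8 mice was depleted of ribosomal RNA and sequenced, 1 library for each mouse. The submitters' processing notes name Cutadapt 1.9.3, HISAT2 2.0.4 on the mm10 build, Cufflinks and Cuffdiff. The authors used the first of these for trimming and HISAT2 for alignment. The deposited values are FPKM per gene, as the authors computed them, and their depth is unknown. The labels name a TruSeq Stranded library kit and the study's methods a NEBNext directional kit, and the strand setting of the quantification is not given in the sources used here. Where the authors' table gives several genes 1 locus, as for 13 of the 46 genes, their values are less certain. The per-sample columns left unused numbered 0.

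From the deposited FPKM, log2 values of FPKM + 1 were computed, and the 11476 genes averaging 0.5 FPKM or more entered limma 3.58.1 in R 4.3.3 (eBayes with a variance trend, two-sided, Benjamini-Hochberg adjustment over all of them). Single genes were also compared by exact two-sided permutation tests over 70 relabellings. The procedure was tested on simulated data. Python 3.11.15 was used with numpy 2.4.6, pandas 2.3.3 and, for plots, matplotlib 3.10.9. Gene positions are those of GENCODE M21 on GRCm38, the assembly also called mm10, and promoter windows those of RefSeq on GRCm38.p6.

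Each of the 46 genes was named, and full values were given for those at an adjusted p under 0.05 and for the highest gene of each role. Of 6 further lists, up to 6 changed genes, taken by adjusted p, and the highest gene were named. Of the 9 marker lists and of genes near the 0.5 FPKM limit, those named were chosen after their values were seen, as were Tfeb and its relatives. Members and lists were chosen with earlier results of these data known. Adgre1, Rubcn, Cln7 and Atg101 matched no symbol and were not analysed here. Also tried were a filter at 1 FPKM or none, a pseudocount of 0.1, quantile normalization, equal medians, array weights, a fit blocked on mouse number, a variance model without trend, and leaving out each mouse. Leaving out both ND mouse 7 and HFrD mouse 1 was an alternative chosen after the data had been seen.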

Additional observations from a re-analysis of the deposited data

Results flagged for a closer look

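In 6 of 92 groups of 4 mice (46 genes, each diet), 1 mouse stood apart from the other 3 by more than Dixon's 95% limit, and chance gives about 1 in 20. Atp6v1g1 was at 35.0 FPKM in ND mouse 1 while the other ND mice had 37.6 to 37.9 FPKM, and at 45.4 FPKM in HFrD mouse 1 while the other HFrD mice had 61.3 to 63.6 FPKM. Atp6v0d2 was at 2.32 FPKM in HFrD mouse 1 against 0.797 to 1.02 FPKM, and Atg2b at 5.82 FPKM in the same mouse against 4.95 to 5.08 FPKM. Ctsc was at 41.2 FPKM in ND mouse 1 against 20.8 to 23.5 FPKM, and Atg2a at 7.82 FPKM in that mouse against 5.48 to 5.83 FPKM. All of these values came from mouse 1 of either diet.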

How the results depend on the processing

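Under a filter at 1 FPKM or none, a pseudocount of 0.1, quantile normalization, equal medians and array weights, 7 genes were higher and 0 lower. These counts are out of the 46 genes, or out of 45 under the filter at 1 FPKM, which removed Atp6v1g2. Without the variance trend 5 were higher, Ctsb and Ctsz no longer passing. When each mouse was left out in turn, 5 to 7 were higher and 0 to 2 lower, the genes counted in all genes ranged from 538 (without ND mouse 1) to 1296 (without HFrD mouse 1) around the 1047 of the full set, and the median log2 fold change of the 46 genes ran from -0.03 to 0.02. The 2 lower genes, Atg3 and Atg4a, appeared without HFrD mouse 1, and 1 lower gene, Atg3, appeared without both HFrD mouse 1 and ND mouse 7. Among all genes the balance of directions shifted with the scaling, from 624 higher of 1047 to 568 of 1110 under quantile normalization and 552 of 1166 with equal medians. The diets share only the mouse numbers 1 and 7, whose deviations from the group means correlated at 0.08 and -0.01. Between mice of different numbers these correlations ran from -0.145 to 0.107. With 2 shared numbers, these values cannot decide whether the numbers pair the mice. With the mouse number as a replicate block, 2 of all genes and 0 of the 46 passed, in a fit that keeps 1 contrast between diets within each shared number and rests on those 4 libraries. The cause of the other changes was not tested. Depth limits the genes under 1 FPKM most, here Atp6v1g2.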
